A study of Paeonia lactiflora with 8 samples.

Results

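The miR393 family was followed through 4 tissues of the herbaceous peony Paeonia lactiflora. Its members were all entries of the deposited miRNA table that carry the miR393 number in their name, counted once per mature sequence, which gave 7 of the 270 different sequences. Small RNA had been sequenced from young fruit at the young fruit period and from leaf, flower and root at blossom, with 2 libraries of each, which the submitters call biological replicates. All came from the same species with no treatment named, so tissue and stage cannot be told apart for fruit. Whole organs were used, so a lower value can mean fewer cells that hold a miRNA or less of it per cell, which cannot be told apart. The study links small RNA in these organs to their different content of paeoniflorin, a monoterpene glucoside of peony. No tissue marker was measured in these small RNA libraries, and the tissue labels were taken as given.

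In plants miR393 guides the cleavage of messenger RNAs for the F-box proteins TIR1 and AFB, which are the receptors of the hormone auxin. Auxin joins the receptor to Aux/IAA repressors, which are then degraded, so that auxin response factors can act on their genes. A mature miRNA is cut from a hairpin as a duplex of a 5p and a 3p strand, and the 5p strand is the one that pairs with the receptor messages. In Arabidopsis 22-nt miRNAs can set off secondary small RNAs from the messages they cleave, and the 3p strand of miR393 has been tied to immunity through the Argonaute protein AGO2. None of these targets was measured here.

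The 3 forms that read as the 5p strand are shown first, because they carry nearly all of the family's signal. Each is written 5′ to 3′ as DNA letters, as deposited, with the seed (bases 2 to 8) in capitals.
vvi-miR393a_R+1: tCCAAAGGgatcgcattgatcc
bdi-miR393a_R+1_1ss21CT: tCCAAAGGgatcgcattgattt
ath-miR393a-5p_L+1R-2: tTCCAAAGggatcgcattgat

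A name starts with the species code of the miRBase entry it matched. L and R with a sign count bases gained or lost at the 5′ and 3′ ends. vvi-miR393a_R+1 is 22 nt long, 1 base longer at its 3′ end than the grapevine entry of 21 nt that names it. The 22-nt bdi-miR393a_R+1_1ss21CT has the same seed and differs from it by C21T and C22T, counted from the 5′ end of vvi-miR393a_R+1. The 21-nt ath-miR393a-5p_L+1R-2 starts 1 base earlier and matches vvi-miR393a_R+1 at 20 of 20 shared positions, so its seed is shifted by 1 base.

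The 3 forms that read as the 3p strand follow, because they show how far the opposite arm was captured.
vvi-MIR393b-p3: aTCATGCTatccctttggatt
gma-MIR393a-p3: tGCTATCCctttggatttctcc
bdi-miR393b-3p: tCAGTGCAatccctttggaat

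The letters of the arms fit each other as a miRNA duplex does. Folded together with RNAduplex, vvi-miR393a_R+1 and vvi-MIR393b-p3 formed 18 base pairs with a 3′ overhang of 2 nt on each strand, at a predicted free energy of -24.6 kcal/mol. With bdi-miR393b-3p, vvi-miR393a_R+1 formed 18 pairs at -28.9 kcal/mol, with overhangs of 3 nt on the 5p strand and 2 nt on the 3p strand. gma-MIR393a-p3 is 22 nt long, shares 17 of 17 overlapping bases with vvi-MIR393b-p3 and starts 4 bases further in, so it formed 14 pairs and left 7 nt over on each strand. vvi-MIR393b-p3 and bdi-miR393b-3p, both 21 nt, match at 15 of 21 positions. No genome position is given, since no genome of the species was used here.

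The seventh sequence carries the family number by name alone.
cpa-MIR393-p5: tATATATAtatatgtgtgtgtg

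cpa-MIR393-p5 begins with 13 bases of alternating T and A. Its best ungapped overlay on vvi-miR393a_R+1 matched 7 of 20 bases, and it formed 5 pairs with it. It reads as neither arm of miR393 and is described under its deposited name. Of the 263 sequences outside the family, 0 matched one of the other 6 members at 80% or more over at least 17 bases.

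The values are the authors' normalized read counts, one figure per sequence and library. Per the deposited legend a value counts the reads of the isoforms at that arm of a hairpin, so a row named by a 22-nt sequence may also hold reads of neighbouring lengths. The summed value per library ran from 179334 to 536567, and flower 2 held the highest sum. Within each library most low values were multiples of 1 step, taken as the value of 1 read, and all 28 miR393 values above 0 were whole multiples of it within 0.01. By that step the listed sequences held from 73898 reads in root 2 to 724509 reads in flower 2, which is not the sequencing depth. Root 2 stood apart in another way, with 16% of its value in sequences of 18 and 19 nt, against at most 1.93% elsewhere. The value of 3 reads was 4.19 and 2.77 in fruit, 3.15 and 2.23 in leaf, 1.3 and 2.22 in flower, with 4.27 and 7.62 in root, which is the level a listed 0 allows. These floors and the intervals given for shares of reads cover counting error only.

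vvi-miR393a_R+1, the 22-nt 5p strand, had its highest values in leaf. It was 824 and 408 in fruit, 3620 and 3987 in leaf, 338 and 54.1 in flower, with 354 and 167.7 in root. Both leaf libraries lay above the other 6, and the higher fruit value was 4.4-fold below the lower leaf value. The means were 616 ± 294 in fruit, 3804 ± 259 in leaf, 196 ± 200.7 in flower and 261 ± 131.9 in root (SD, n = 2 each). The fold between replicates was 2.02 in fruit, 1.1 in leaf, 6.25 in flower and 2.11 in root. In the order leaf, fruit, root and flower, the fruit and root libraries did not overlap but came within 1.15-fold of each other, and root and flower overlapped.

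**Figure D1:**
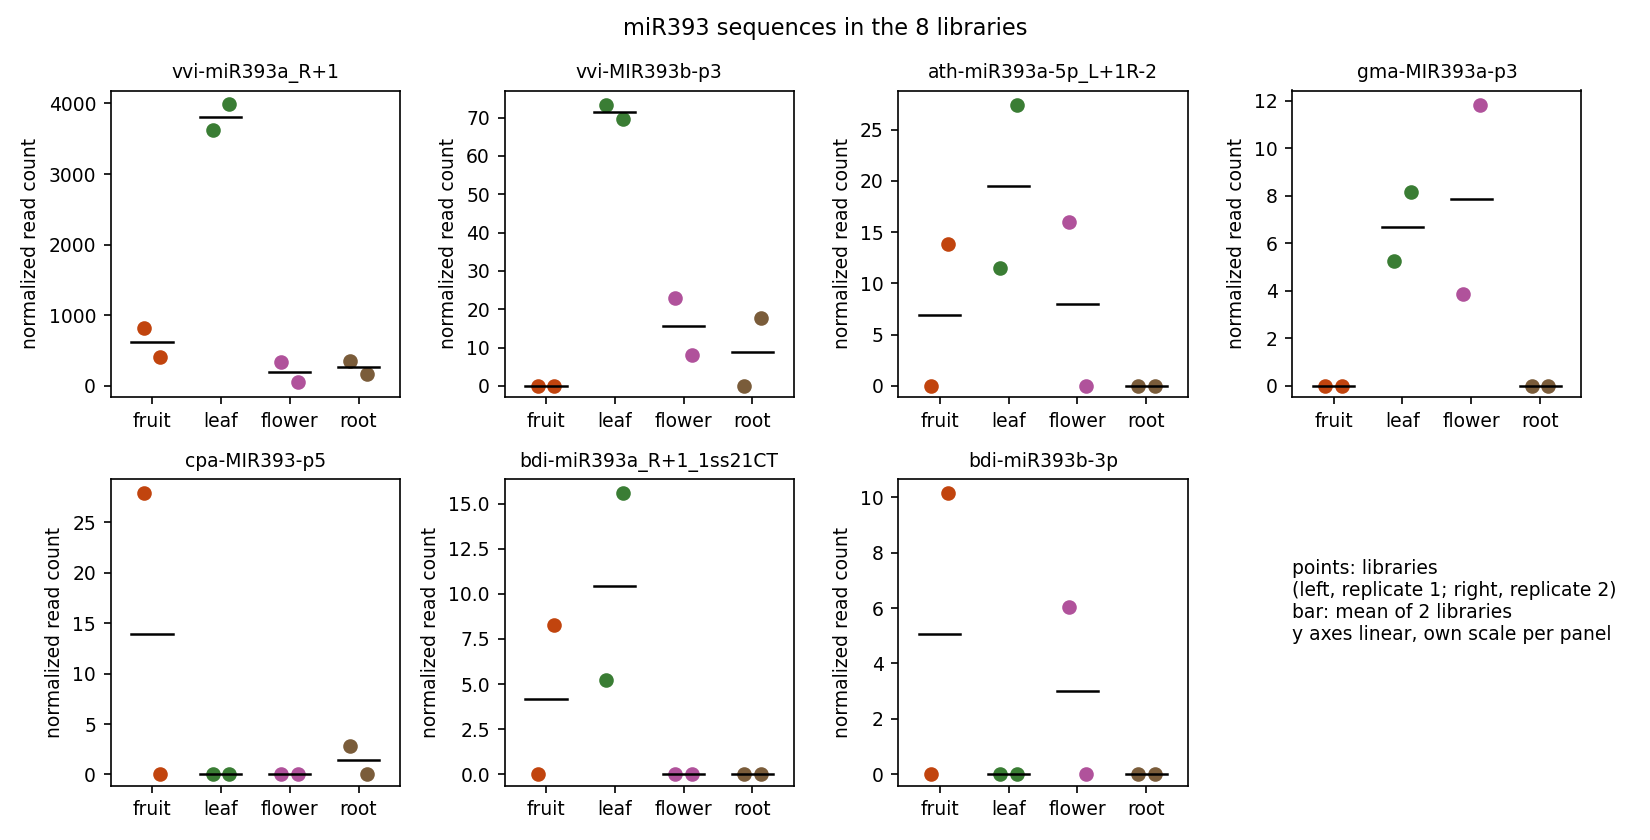
Normalized read count (linear y axis, own scale in each panel) of the 7 miR393 sequences in fruit, leaf, flower and root. Points are libraries, replicate 1 on the left, and bars are means of 2 libraries. vvi-miR393a_R+1 was at 3620 and 3987 in leaf and at most 824 elsewhere, while cpa-MIR393-p5 was above 0 in 1 fruit and 1 root library only.

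The same order held for its share of each library's value, which does not rest on the authors' scaling between libraries. vvi-miR393a_R+1 made up 0.459% and 0.219% of the fruit libraries, 1.36% and 1.62% of the leaf libraries, 0.151% and 0.0101% of the flower libraries, with 0.14% and 0.0893% of the root libraries. Between 139 and 189 sequences were above 0 in a library. By value it ranked 24 and 35 in fruit, 13 and 11 in leaf, 37 and 71 in flower, with 42 and 45 in root. It is also one of 33 sequences of 22 nt in the table. Its part of the value of all rows named by a 22-nt sequence was 7.66% and 3.59% in fruit, 32.7% and 24.4% in leaf, 2.47% and 0.309% in flower, with 3.73% and 1.24% in root. Such rows may also hold reads of neighbouring lengths.

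Tissues were compared with limma on log2(value + 1), with all 216 sequences that reached a value of 1 in at least 2 libraries and Benjamini-Hochberg adjustment over them. All 7 miR393 sequences passed that filter, and a sequence was called at an adjusted p under 0.05. Limma called 0 of the 7 in the F test over the 4 tissues, where it called 4.63% of all sequences, and 3 of the 7 had an unadjusted p under 0.05, as had 67 of the 216 (31%). vvi-miR393a_R+1 had an adjusted p of 0.0869 in that F test (limma).

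Leaf was first compared with root, the underground organ. The leaf mean of vvi-miR393a_R+1 was 14.6-fold the root mean, with a log2 difference of 3.96 ± 1.03 (SE) and a 95% interval of 1.47 to 6.44. It did not pass (adjusted p = 0.0677, limma), and neither did any other member. Limma called 8.33% of all sequences in this pair and 0 of the 7 members, of which 4 had an unadjusted p under 0.05 with leaf higher, as had 13.9% of all sequences. The leaf and root libraries did not overlap for 5 of the 7, with leaf higher, as was so for 25.5% of all sequences. Among them, ath-miR393a-5p_L+1R-2, gma-MIR393a-p3 and bdi-miR393a_R+1_1ss21CT were listed at 0 in root. In leaf 1 gma-MIR393a-p3 and bdi-miR393a_R+1_1ss21CT were at 5.24, under the 7.62 that 3 reads are worth in root 2. Their leaf 2 values and both leaf values of ath-miR393a-5p_L+1R-2 lay above it. Without flower 1 vvi-miR393a_R+1 was called (adjusted p = 0.0476, limma), and over 14 alternatives its adjusted p ran from 0.0476 to 0.273. Without root 2 the log2 difference was 3.42 (adjusted p = 0.166, limma). In this and every later fit that leaves a tissue with 1 library, that library is assumed to vary as the other tissues do.

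Leaf against flower set side by side organs of the same period. The leaf mean of vvi-miR393a_R+1 was 19.4-fold the flower mean, with a log2 difference of 4.80 ± 1.03 (SE, 95% interval 2.32 to 7.28), and it did not pass (adjusted p = 0.0787, limma). The flower libraries differed 6.25-fold from each other. The log2 difference was 6.11 without flower 1 and 3.49 without flower 2. Limma called 2.31% of all sequences and 0 of the 7 members, and 2 of the 7 had an unadjusted p under 0.05 with leaf higher, as had 12% of all sequences. For 3 of the 7 the leaf and flower libraries did not overlap, with leaf higher, against 25% of all sequences.

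Fruit against leaf gave the same direction for this strand. vvi-miR393a_R+1 averaged 616 in fruit against 3804 in leaf, with a log2 difference, fruit minus leaf, of -2.71 ± 1.03 (SE, 95% interval -5.19 to -0.23), and did not pass (adjusted p = 0.226, limma). Limma called 3.7% of all sequences and 0 of the 7 members. Among the 7, 3 had an unadjusted p under 0.05 with fruit lower, as had 14.4% of all sequences. The libraries of 3 did not overlap, with fruit lower, which was so for 32.4% of all sequences. A fit of fruit and leaf alone called vvi-miR393a_R+1 (adjusted p = 0.0368, limma). That fit called 47 sequences, against 8 in the main fit, and no other of 14 alternatives called this strand. Its log2 difference was -2.22 with total scaling (adjusted p = 0.397, limma) and -2.26 with quantile normalization (adjusted p = 0.317, limma).

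Among fruit, flower and root the intervals of vvi-miR393a_R+1 all spanned 0. The log2 difference was 2.09 ± 1.03 for fruit minus flower (95% interval -0.40 to 4.57), 1.25 ± 1.03 for fruit minus root (-1.24 to 3.73) and -0.84 ± 1.03 for flower minus root (-3.32 to 1.64). Limma called 0 of the 7 members in each pair. It called 2.31% of all sequences between fruit and flower, 2.78% between fruit and root, and 2.78% between flower and root. At an unadjusted p under 0.05 there were 2 members with fruit below flower, beside 12.5% of all sequences, 0 between fruit and root, beside 15.7% in either direction, and 1 with flower above root, beside 12%. The fruit minus flower difference was 3.40 without flower 1 and 0.78 without flower 2. The sign for flower minus root turned without flower 2, to 0.47.

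**Figure D2:**
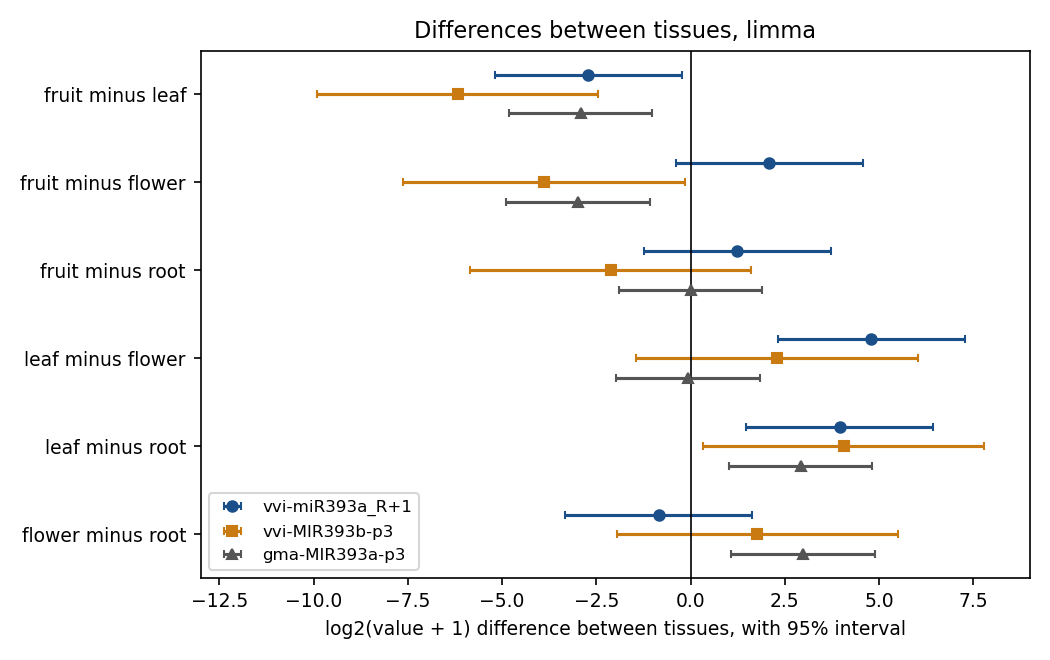
Difference between tissues in log2(value + 1) for the 22-nt 5p strand and 2 of the 3p forms, with the 95% interval from limma over all 8 libraries, for the 6 pairs of tissues. Intervals of vvi-miR393a_R+1 lie wholly above 0 for leaf minus flower and leaf minus root and wholly below 0 for fruit minus leaf, before adjustment over the 216 sequences.

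vvi-MIR393b-p3, whose letters form the 2-nt overhangs with the 22-nt strand, had the highest mean of the 3p forms. It was 0 and 0 in fruit, 73.4 and 69.8 in leaf, 22.9 and 8.15 in flower, with 0 and 17.8 in root. Leaf was again above the other 6 libraries, and both fruit libraries were listed at 0. It was not the highest 3p form in every library, since gma-MIR393a-p3 had 16 reads against its 11 in flower 2 and bdi-miR393b-3p had 11 against 0 in fruit 2. The means were 0 in fruit, 71.6 ± 2.57 in leaf, 15.5 ± 10.4 in flower and 8.89 ± 12.6 in root (SD, n = 2 each). Both leaf libraries were above the other 6 for 2 of the 7 members, vvi-miR393a_R+1 and vvi-MIR393b-p3, and for 10.6% of all 216 sequences.

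The fitted log2 difference of vvi-MIR393b-p3 was -6.18 ± 1.55 for fruit minus leaf (SE, adjusted p = 0.0776, limma). It was 4.07 ± 1.55 for leaf minus root (SE, adjusted p = 0.178, limma) and 2.29 ± 1.55 for leaf minus flower (SE, adjusted p = 0.493, limma). These values depend on the pseudocount of 1 where a library is listed at 0, and with a pseudocount of 10 fruit minus leaf was -3.03 (adjusted p = 0.0641, limma). Some calls differed between fits with and without a root library, of which root 1 lists 0 and root 2 lists 17.8, equal to 7 reads. Between fruit and leaf 3 of 14 alternatives called vvi-MIR393b-p3. These were the fits without root 1 and without root 2, each at an unchanged log2 difference of -6.18, and a fit of those tissues alone (adjusted p = 0.00789, limma). The fit of those tissues alone called 47 sequences, against 8 in the main fit. With the replicate block the adjusted p was 0.125 (limma). Between leaf and root the log2 difference was 6.18 without root 2 (adjusted p = 0.0295, limma) and 1.95 without root 1 (adjusted p = 0.179, limma), each with 1 root library whose spread is taken from the other tissues. Between fruit and flower the adjusted p of 0.285 became 0.0443 without root 1 and 0.0473 without root 2 (limma), at a log2 difference of -3.89. Between fruit and root the log2 difference of -2.12 became -4.23 without root 1 (adjusted p = 0.0414, limma), a fit in which root 2 stands alone for root.

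gma-MIR393a-p3, the 3p form that starts further in, was low. It was 0 and 0 in fruit, 5.24 and 8.16 in leaf, 3.89 and 11.8 in flower, with 0 and 0 in root. Leaf and flower overlapped, and fruit and root were listed at 0. Its log2 difference was 2.92 ± 0.79 for leaf minus root (SE, adjusted p = 0.0694, limma) and -2.92 ± 0.79 for fruit minus leaf (SE, adjusted p = 0.1, limma). For flower minus root it was 2.99 ± 0.79 (SE, adjusted p = 0.125, limma), and for fruit minus flower -2.99 ± 0.79 (SE, adjusted p = 0.109, limma). These differences are set by the pseudocount, since fruit and root are listed at 0. With a pseudocount of 10 they were 0.73 for leaf minus root (adjusted p = 0.219, limma), -0.73 for fruit minus leaf (0.244), 0.80 for flower minus root (0.253) and -0.80 for fruit minus flower (0.276). In a fit of fruit and leaf alone, with a pseudocount of 1, it was called (adjusted p = 0.0167, limma). That fit called 47 sequences in all, and no other of 14 alternatives called gma-MIR393a-p3 for fruit minus leaf. Leaf 1 and flower 1 lie under the 7.62 that 3 reads are worth in root 2, so at such levels its absence from root 2 was not detectable.

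bdi-miR393b-3p, the 3p form with the lower predicted energy, was seen in only 2 libraries. It was 10.1 in fruit 2 and 6.05 in flower 1 and was listed at 0 in the other 6, the leaf libraries among them. Thus vvi-MIR393b-p3 was listed at 0 in fruit 2, where bdi-miR393b-3p had 11 reads, while in leaf 1 and leaf 2 vvi-MIR393b-p3 had 70 and 94 reads and bdi-miR393b-3p had 0.

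The arms were then set against each other inside each library, a ratio that scaling between libraries cannot alter. The 3p forms summed to 0 of 590 miR393 reads in fruit 1 and 11 of 477 in fruit 2, or 0% (up to 0.508% by 3 reads) and 2.31% (exact 95% interval 1.16% to 4.09%). In leaf they were 75 of 3544 and 105 of 5536 reads, or 2.12% (1.67% to 2.65%) and 1.9% (1.55% to 2.29%). In flower they were 76 of 895 and 27 of 100 reads, or 8.49% (6.75% to 10.5%) and 27% (18.6% to 36.8%). In root they were 0 of 249 and 7 of 73 reads, or 0% (up to 1.2% by 3 reads) and 9.59% (3.94% to 18.8%). Both flower libraries lay above both leaf and both fruit libraries, and root 2 lay between the flower libraries. In flower 2, 16 of the 27 3p reads were of gma-MIR393a-p3, the form that left 7 nt over on each strand. In flower 1 this form had 9 of the 76. vvi-MIR393b-p3 alone made up 5.92% and 11% of the family's value in flower, against 1.98% and 1.7% in leaf. The mean 3p share was 1.15 ± 1.63% in fruit, 2.01 ± 0.155% in leaf, 17.7 ± 13.1% in flower and 4.79 ± 6.78% in root (SD, n = 2 each), and no test was made of this share.

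**Figure D3:**
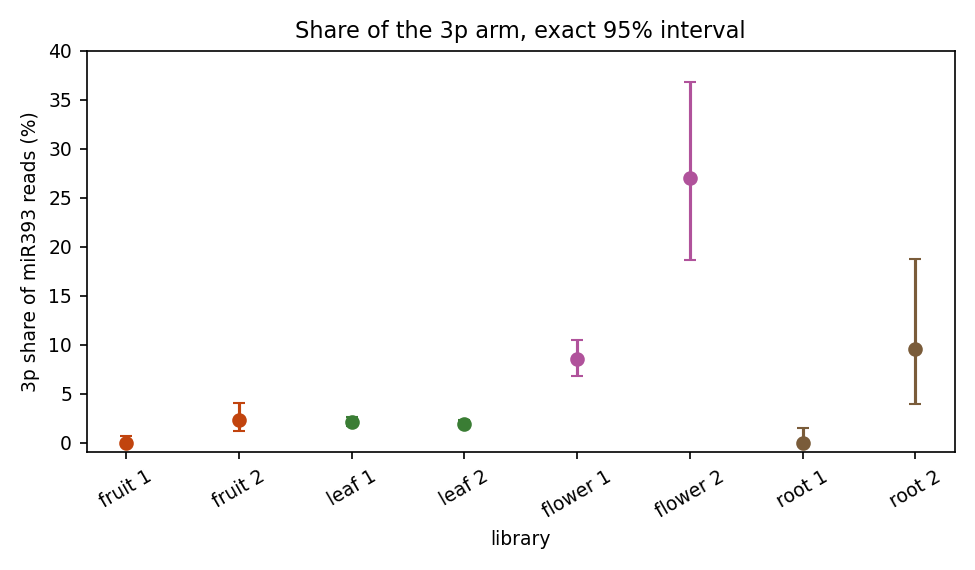
Share of 3p reads among the 3p and 5p reads of miR393 (y axis, percent) in each of the 8 libraries, with the exact 95% binomial interval. The leaf libraries were at 2.12% and 1.9%, and the flower libraries at 8.49% and 27%. In flower 2, 16 of the 27 3p reads were of gma-MIR393a-p3.

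The higher 3p share in flower stood beside lower values of both arms there. The 5p forms summed to 3637 and 4030 in leaf against 354 and 54.1 in flower. The 3p forms summed to 78.6 and 77.9 in leaf against 32.8 and 20 in flower. Reads are not compared between libraries here, since 1 read was worth 1.05 and 0.742 in leaf and 0.432 and 0.741 in flower. Flower libraries had the most reads in listed sequences of the 8, and flower 2, with the highest 3p share, had the highest total value. These reads cover the listed sequences only and are not the sequencing depth. The part of read number and total value in this difference was not tested.

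Within the 5p arm the 21-nt row, whose sequence starts 1 base earlier than the main form, was a minor part. The row of vvi-miR393a_R+1 may also hold reads of 21 nt, so the shares below do not compare 21 with 22 nt. ath-miR393a-5p_L+1R-2 was 0 and 13.8 in fruit, 11.5 and 27.5 in leaf, 16 and 0 in flower, with 0 and 0 in root. Fruit, leaf and flower overlapped, and both root libraries were listed at 0. Its share of the 5p reads was 3.22% in fruit 2 (exact 95% interval 1.81% to 5.25%) and 4.52% in flower 1 (3.2% to 6.17%). In leaf it was 0.317% (0.158% to 0.567%) and 0.681% (0.48% to 0.938%). The intervals of fruit 2 and flower 1 lie above those of both leaf libraries. Fruit 1 had 0 of 590 reads, which allows up to 0.508%, so the fruit libraries did not agree. Flower 2 had 0 of 73, root 1 had 0 of 249 and root 2 had 0 of 66, which allow up to 4.11%, 1.2% and 4.55%.

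The other 22-nt 5p form, which differs from the main one by C21T and C22T, was low. bdi-miR393a_R+1_1ss21CT was 0 and 8.3 in fruit, 5.24 and 15.6 in leaf, and 0 in both flower and both root libraries. Its log2 difference was 3.35 ± 1.15 for leaf minus flower (SE, adjusted p = 0.17, limma) and the same size for leaf minus root (adjusted p = 0.129, limma). With a pseudocount of 10 both were 0.98. It held 0.144% and 0.387% of the 5p reads in leaf and 1.93% in fruit 2. In flower 1, with 0 of 819 reads, a share of up to 0.366% is allowed, which covers the value of leaf 1. Flower 2, root 1 and root 2 allow up to 4.11%, 1.2% and 4.55%, which cover both leaf values.

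cpa-MIR393-p5, the repeat sequence, was 27.9 in fruit 1 and 2.85 in root 1, equal to 20 and 2 reads, and 0 in the other 6 libraries. The fruit libraries were thus at 27.9 and 0. Leaf, where the other family members had their highest summed value, was listed at 0.

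The wider set of miRNAs with targets in auxin signalling gives the setting. The list held miR160 and miR167, which target auxin response factors, miR390, which starts the trans-acting RNAs that also target them, miR393, and miR847, of which the table had 0 sequences. Of 20 sequences 19 passed the filter, 7 of them miR393. Limma called 2 of the 19 in leaf minus root, both higher in leaf, beside 8.33% of all sequences. It called 1 in leaf minus flower, higher in flower, beside 2.31% of all sequences, and 1 in fruit minus leaf, higher in leaf, beside 3.7%. It called 1 in fruit minus flower, higher in flower, beside 2.31%, 1 in flower minus root, higher in flower, beside 2.78%, and 0 in fruit minus root, beside 2.78%. At an unadjusted p under 0.05 there were 8 of the 19 in leaf minus root (21.8% of all sequences), 7 in leaf minus flower (21.3%) and 4 in fruit minus leaf (19%). There were 4 in fruit minus flower (16.2%), 6 in flower minus root (16.2%) and 2 in fruit minus root (15.7%). These counts include miR393. Without it there were 4 of 12 in leaf minus root, 5 in leaf minus flower and 1 in fruit minus leaf. In fruit minus flower, flower minus root and fruit minus root there were 2, 5 and 2 of the 12.

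The called members of the list were from miR390 and miR167, and none was a miR393. Both sequences called in leaf minus root are 3p forms by name. Whether these 3p forms share the targets given above for their families was not tested. hex-MIR390a-p3_2ss1TA21GT had 18.9 and 20.8 in the leaf libraries and 2.59 in flower 1, and was listed at 0 elsewhere (adjusted p = 0.0437 for fruit minus leaf and 0.0346 for leaf minus root, limma). ath-miR167a-3p_L+1_2ss10TG11C- reached 281 and 352 in the leaf libraries, against 11.4 and 34.3 in those of root, and was called for leaf minus root (adjusted p = 0.0441, limma). ptc-miR390a_R+1 was 4.75 and 4.44 in flower and 0 in all other libraries, a level under the 7.62 of 3 reads in root 2. It gave the calls higher in flower, with adjusted p = 0.0462 for fruit minus flower and leaf minus flower and 0.0385 for flower minus root (limma). It passed the filter only through its flower libraries, and hex-MIR390a-p3_2ss1TA21GT also needed its leaf libraries to pass. Nothing is drawn from these calls.

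The median log2 difference of the 7 miR393 sequences was 3.35 for leaf minus root, beside 0.49 for the other 12 auxin sequences and 0 for all 216. For leaf minus flower the medians were 2.20, 1.08 and 0 in the same order, and for fruit minus leaf they were -2.29, -0.21 and -0.03. These medians include low sequences listed at 0 in a tissue, so they depend on the pseudocount. The miR393 median for leaf minus root is the value of bdi-miR393a_R+1_1ss21CT, which was 0.98 with a pseudocount of 10. For leaf minus flower and fruit minus leaf it is that of ath-miR393a-5p_L+1R-2, which became 0.82 and -0.88. Forms of the same strand count as separate members here, so the medians do not describe the family's main strand.

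Summed over a family, miR393 was 851 and 440 in fruit, 3716 and 4108 in leaf, 387 and 74.1 in flower, with 357 and 185.5 in root. The miR167 family was also highest in leaf, with sums of 1557 and 18723 in fruit, 33879 and 35182 in leaf, 1939 and 3274 in flower, with 572 and 1622 in root. The miR390 family had its lowest tissue mean in leaf, at 207 and 195 there, with 992 and 137 in root. The miR160 family summed to 1916 and 1387 in leaf, inside the range of root, at 4321 and 846.

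**Figure D4:**
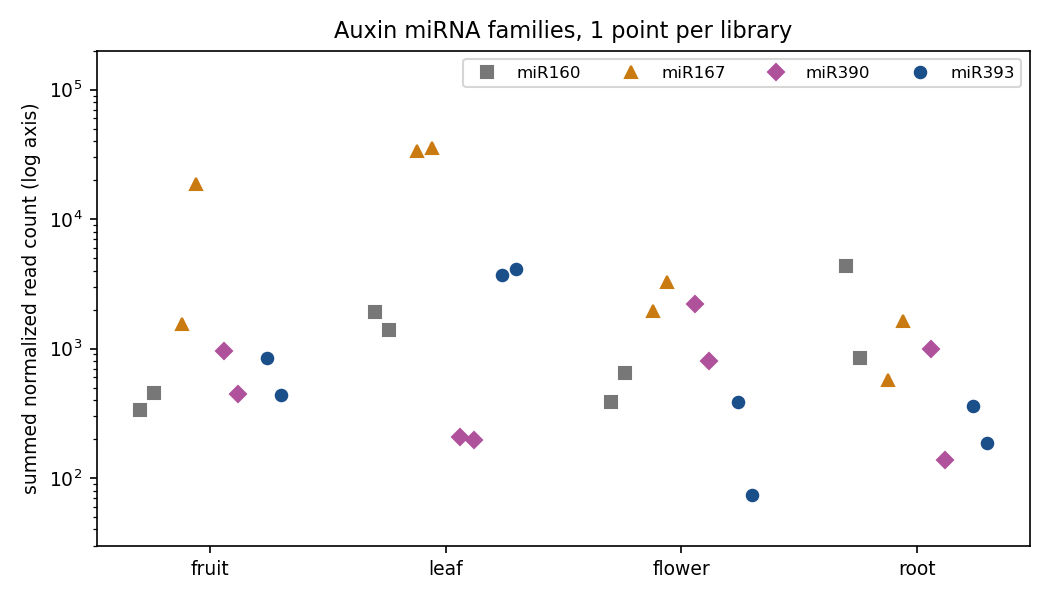
Summed normalized read count (log y axis) of the miR160, miR167, miR390 and miR393 families in fruit, leaf, flower and root, with 1 point per library. miR393 and miR167 were higher in both leaf libraries than in every other library, and miR390 in leaf was at 207 and 195.

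Sequences with a profile like that of a member were looked up among 131 others with a mean of at least 10, by Pearson's r over the 8 libraries on log2(value + 1). These are the highest of 131 values, over libraries that share tissues, and are given as a description. For vvi-miR393a_R+1 they were gma-miR396a-3p_L+1 (r = 0.86, Spearman's rho = 0.762), mtr-miR397-5p_L-2R+2 (r = 0.838, rho = 0.888) and aly-miR172b-5p_1ss2CT (r = 0.836, rho = 0.833). Without the leaf libraries r was 0.858, 0.54 and 0.813 in the same order, so the second of these rests on leaf. gma-miR396a-3p_L+1 was 2579 and 1733 in fruit, 3742 and 4408 in leaf, 2694 and 425 in flower, with 2155 and 2065 in root, a flatter profile than that of vvi-miR393a_R+1.

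For vvi-MIR393b-p3 the closest were hbr-MIR6173-p5_1ss10AT (r = 0.795, rho = 0.81), zma-miR171a-3p_L+1R+1_1ss18AG (r = 0.743, rho = 0.663) and hbr-MIR6173-p3_1ss3CT (r = 0.732, rho = 0.687). Without the fruit libraries, which were at 0 for all of them, r was 0.589, 0.586 and 0.377 in the same order. None of the 3 is among those closest to vvi-miR393a_R+1. Between vvi-miR393a_R+1 and vvi-MIR393b-p3 themselves r was 0.386 and rho 0.293 over the 8 libraries, and r was -0.576 without leaf. Both fruit libraries and root 1 are listed at 0 for vvi-MIR393b-p3, so no relation between the strands is drawn from these values.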

How the data were processed

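Small RNA libraries of 4 tissues, 2 each, were compared. The values are normalized read counts, deposited by the authors and treated as a signal of unknown formula. Per the labels' protocols, the program ACGT101-miR filtered out adapter dimers, reads of low complexity, repetitive reads and the common RNA classes. Per the deposited legend, reads were mapped to miRBase hairpins and in some groups to a genome. Their formula, versions and build: not given in the sources used here.

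The 304 entries were reduced to 270 sequences, and repeated entries held equal values. The value of 1 read was the largest step of which at least 65% of low values were multiples. Of all values above 0 in a library, 75.7% to 83.2% were whole multiples within 0.01 and at least 94.2% were when shares of 1 in 2 were accepted, so no count model was used. Values were fitted as log2(value + 1) with limma 3.58.1 in R 4.3.3, fitting tissue alone over the 8 libraries with a mean-variance trend, with 4 residual and 2.43 prior degrees of freedom. The fit was tested on simulated data. Arms were paired with RNAduplex (ViennaRNA 2.7.2), and intervals are exact Clopper-Pearson. Every miR393 sequence is named, with called auxin sequences and the 3 most alike per member with a mean of at least 10. The members, lists and tests were chosen with earlier results of these data known. Alternatives were a pseudocount of 10, no filter, total and quantile scaling, fits of 1 pair, a replicate block and leaving out each library. Pairing by replicate number was checked by the correlation of deviations between tissues.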

Additional observations from a re-analysis of the deposited data

How the results depend on the processing

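No alternative made a miR393 sequence lose a call, since limma called 0 of them to begin with. Of 499 refits of 38 member differences, 474 kept direction and side of the threshold, 10 passed it, 10 turned sign and 5 gave a difference of 0, each of them without 1 library. Counts over all sequences, in the order fruit minus leaf, fruit minus flower, fruit minus root, leaf minus flower, leaf minus root, flower minus root and any tissue, were 8, 5, 6, 5, 18, 6 and 10. With a pseudocount of 10 they were 10, 0, 0, 0, 13, 0 and 0. With no filter they were 2, 1, 1, 0, 2, 2 and 4. With total scaling they were 9, 1, 4, 0, 9, 4 and 3, and with quantile normalization 7, 1, 1, 0, 10, 3 and 3. In fits of 1 pair alone they were 47, 0, 0, 19, 0 and 0. Where a count was 0, 26 to 57 sequences had an unadjusted p under 0.05 in those fits. Leaving out 1 library gave 0 to 30, 0 to 18, 0 to 29, 0 to 21, 0 to 44, 0 to 24 and 0 to 53, the highest without root 1 in each. The cause was not tested.

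With the replicate block the counts were 0, 0, 1, 0, 0, 1 and 0, with 31 to 57 sequences at an unadjusted p under 0.05. Deviations of same-numbered libraries correlated from -0.20 to 0.24 over the 6 pairs of tissues. These correlations alone cannot show whether same-numbered libraries share more than their number. No call of a miR393 sequence came or went with the block.

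Signs of log2 differences turned as follows, with the range over leaving out 1 library. vvi-miR393a_R+1 in flower minus root ran from -2.15 to 0.47 (without flower 2), and vvi-MIR393b-p3 there from -0.35 (without root 1) to 3.89. ath-miR393a-5p_L+1R-2 in fruit minus flower, -0.10, was 0.030 with total scaling, 0.20 with quantile normalization and -2.14 to 1.95 without 1 library, turning without fruit 1 or flower 1, and its share of the library differed by 0.000158 percentage points. gma-MIR393a-p3 in leaf minus flower, -0.07, was 0.33 with total scaling and -0.76 to 0.63 without 1 library, turning without leaf 1 or flower 2, and its share differed by 0.000668 percentage points. bdi-miR393b-3p in fruit minus flower, 0.33, was -1.08 (without flower 2) to 2.07. Total scaling moved the median log2 difference of all sequences by over 0.1 in 3 pairs: fruit minus flower (-0.39 to 0.05), leaf minus flower (0 to 0.10) and flower minus root (0 to -0.42). Root 2, at 73898 reads in the listed sequences, sets the weakest limit on low sequences.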
